A study of Mus musculus with 384 samples.

Results

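The AP-1 transcription factors described here are 7 genes, Fos, Fosb, Fosl2, Jun, Junb, Jund and Batf, of the 23420 genes in the expression table. They are members by gene name, a choice made with earlier results of these data known, and each has 1 row in the table. Their levels were followed in single T cells sorted from B16F10 tumours, a transplantable melanoma of C57BL/6 mice, and sequenced by Smart-seq2, a full-length method without molecular identifiers. The 4 plates held CD8 T cells of wild-type mice, CD8 T cells of Il27ra knockout mice, CD4 T cells of wild-type mice and CD4 T cells of Il27ra knockout mice, all of the C57BL/6 strain and all from tumour-bearing animals. Il27ra encodes the chain of the IL-27 receptor that is specific to this cytokine. Each plate had 94 single-cell wells, 1 well labelled as a population and 1 well without a cell. Cells with at least 1000 genes at 1 FPKM or more were kept, which left 72, 77, 74 and 78 of the 94 cells of each plate in this order. FPKM is a fragment count scaled by the length of the transcript and by the size of the library. There was 1 plate and 1 named source for each cell type and genotype, so that genotype, animal and plate cannot be told apart, and no test between plates was made. The cell type of a plate was taken from its sample titles, since the protocol text mentions CD8+ cells and no CD4 cells. The labels give no age of the mice and do not say how the receptor gene was disrupted.

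AP-1 is a family of dimeric transcription factors whose subunits pair through a leucine zipper and bind DNA through a basic region. Jun proteins pair with each other or with Fos proteins, whereas Fos proteins need a Jun or related partner, and Batf, which lacks the activation domain of the Fos proteins, pairs with Jun proteins and binds composite sites together with IRF4. In T cells several of these genes are immediate early genes. They are transcribed within minutes of antigen receptor, cytokine or stress signals from factors already present, and their RNA is short-lived.

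The promoters of 4 members are shown because Fos and Fosb varied together from cell to cell, Junb was the most abundant member, and Batf was the member lower by over 1 log2 on the CD8 plate labelled knockout. The sequences are from RefSeq (GRCm38.p6, the assembly behind mm10) and run 5′ to 3′ on the strand of the gene, up to the base before the more upstream of the RefSeq and GENCODE M21 starts. Capitals mark TGACG, the core of the CREB and ATF binding element, searched on both strands. The intervals are chr12:85473640-85473889 on the plus strand for Fos, chr7:19310052-19310295 on the minus strand for Fosb, chr8:84978749-84978998 on the minus strand for Junb and chr12:85686470-85686668 on the plus strand for Batf.
Fos: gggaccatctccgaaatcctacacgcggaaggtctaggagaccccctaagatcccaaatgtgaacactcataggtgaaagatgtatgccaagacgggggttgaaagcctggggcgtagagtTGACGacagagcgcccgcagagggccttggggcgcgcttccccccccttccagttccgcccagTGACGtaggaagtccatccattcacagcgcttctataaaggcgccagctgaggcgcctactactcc
Fosb: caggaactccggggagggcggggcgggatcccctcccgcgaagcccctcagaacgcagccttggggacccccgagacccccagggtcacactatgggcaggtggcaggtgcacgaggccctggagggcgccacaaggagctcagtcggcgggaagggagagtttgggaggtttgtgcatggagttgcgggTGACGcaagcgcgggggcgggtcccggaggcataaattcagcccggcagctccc
Junb: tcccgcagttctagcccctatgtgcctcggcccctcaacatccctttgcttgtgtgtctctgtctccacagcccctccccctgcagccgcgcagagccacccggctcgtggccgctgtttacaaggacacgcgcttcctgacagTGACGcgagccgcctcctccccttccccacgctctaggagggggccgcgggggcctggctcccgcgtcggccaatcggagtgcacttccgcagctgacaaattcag
Batf: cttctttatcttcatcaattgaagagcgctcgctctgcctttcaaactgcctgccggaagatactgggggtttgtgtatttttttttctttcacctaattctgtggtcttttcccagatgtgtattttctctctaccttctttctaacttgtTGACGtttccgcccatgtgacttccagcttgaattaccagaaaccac
All 7 members had an entry in the RefSeq promoter table. TGACG was found 2 times in the Fos window, the nearer one starting 66 bases before the RefSeq start, and 1 time each for Fosb at 60 bases before it, Batf at 98 bases before it and Junb. The windows of Fosl2, Jun and Jund held no TGACG, although the RefSeq starts of Fosl2 and Jund lie away from the starts of their GENCODE models. Of 32841 promoter windows of 300 bases, 20.8% held TGACG on either strand. The full 2-sided element TGACGTCA was in 1.79% of all windows and in no member's window. The AP-1 site TGANTCA, also searched on both strands, was in 7.81% of all windows, and the CArG box, the site of serum response factor, in 1.63%. Neither was in a member's window. Each window covered 250 bases before the RefSeq start and 50 after it. Sites farther from the start were not searched, so a member may have either site outside its window. These matches describe the letters of the windows and say nothing of binding.

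The median number of detected genes per kept cell was 2530 on the CD8 wild-type plate, 2243 on the CD8 plate labelled knockout, 2047 on the CD4 wild-type plate and 2091 on the CD4 plate labelled knockout, with single cells between 1004 and 6233. The wells without a cell held 6 to 26 detected genes, and all 7 members were at 0 in each of them. Il27ra itself was detected in 51.4% of CD8 wild-type and 57.1% of CD8 cells labelled knockout, and in 36.5% and 47.4% of the CD4 cells. Its arithmetic mean FPKM was lower on the plates labelled knockout, with log2 ratios of -0.43 in CD8 and -0.68 in CD4 cells. By the mean over cells of log2(FPKM + 1) it was instead higher there, by 0.28 in CD8 and 0.16 in CD4. Its population wells held 155.4 and 92.9 FPKM for CD8 and 244.6 and 133.4 FPKM for CD4, wild type first. Its RNA was thus present on all 4 plates, and the labels do not say which stretch of the gene was disrupted. The T cell genes Cd3d, Cd3e and Cd3g were all undetected in 1.30% to 3.85% of cells per plate, and the gene of the other lineage (Cd4 on CD8 plates, Cd8a on CD4 plates) was detected in 0 to 2.70%. Cd8b1, the other CD8 chain, was detected in 25.7% of CD4 wild-type and 23.1% of CD4 cells labelled knockout, against 88.9% and 84.4% of CD8 cells, and the population well of the CD4 plate labelled knockout held 122.2 FPKM of it. Of 5 melanoma markers, 5, 5, 5 and 3 were detected in at least 1 cell of the plates in this order, with Dct and Tyrp1 at 0 on the CD4 plate labelled knockout. Their summed level had medians of 10.3, 8.07, 8.19 and 9.26 FPKM and highest values of 14139, 1034, 2202 and 549 FPKM. Most of that median was Tyr, which was at 1 FPKM or more in 97.4% to 100% of cells on every plate. Of 8 myeloid markers, 7, 6, 8 and 6 were detected in at least 1 cell, with a median sum of 0 FPKM on each plate and highest sums of 8158, 1911, 126045 and 39620 FPKM. Of the B cell markers, Ms4a1 was at 0 in all kept cells and the most often detected one on each plate was in 2.56% to 6.49% of cells. Of the NK cell markers, Ncr1 was at 0 in all kept cells, with 12.6 FPKM in the population well of the CD4 plate labelled knockout, and Klrb1c was in 8.33% and 9.09% of CD8 and 1.35% and 2.56% of CD4 cells. The part of such cells in the members' values was not tested beyond the results without doubtful cells.

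Junb was by far the most abundant member on every plate, and Jund and Fosb were the least. Over the mean FPKM of the 7 genes, Junb made up 72.5% of the sum on the CD8 wild-type plate, 74.2% on the CD8 plate labelled knockout, 70.8% on the CD4 wild-type plate and 58.6% on the CD4 plate labelled knockout. Fos made up 9.62%, 18.4%, 21.4% and 34.2% in the same order. Batf, the second largest share on the CD8 wild-type plate at 14.7%, made up 3.11% to 3.35% on the others. The summed mean level of the 7 genes was 1688 FPKM on the CD8 wild-type plate and 4289 FPKM on the CD8 plate labelled knockout, and it was 3817 and 6928 FPKM on the CD4 plates. The population wells had the same order, with 2429, 6811, 6443 and 14447 FPKM. In a population well, fewer cells that express a gene and less RNA per cell cannot be told apart.

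**Figure D1:**
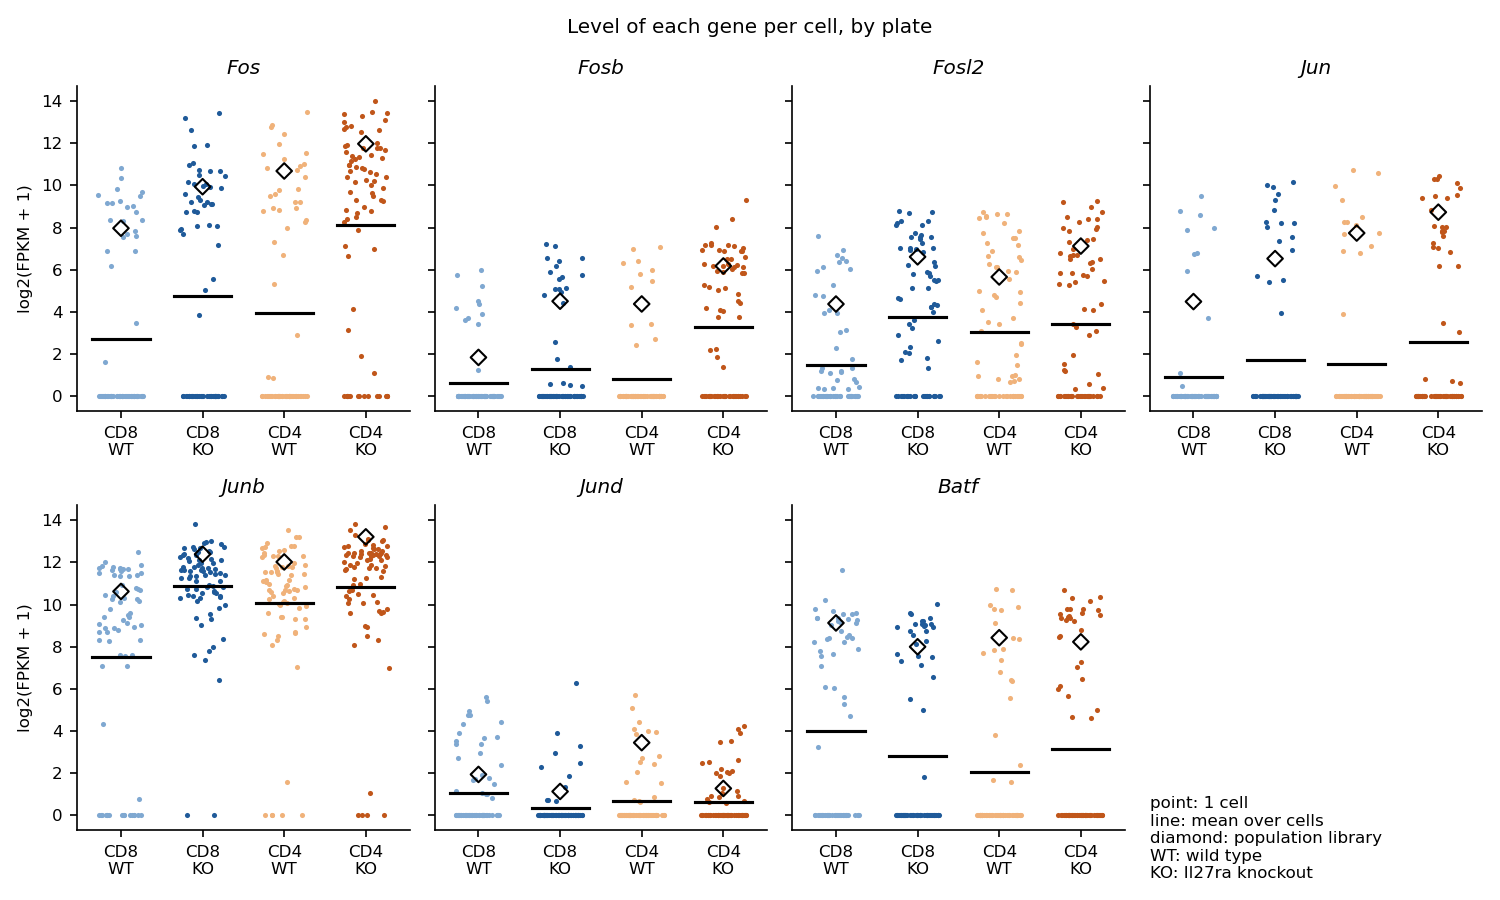
Level of the 7 AP-1 genes per cell as log2(FPKM + 1) on the vertical axis, by plate on the horizontal axis, with the mean over cells as a line and the population well as a diamond. Junb is present in most cells, whereas Fos, Fosb, Jun and Batf are at 0 in many cells, and more Fos points lie above 0 on the CD4 plate labelled knockout (79.5% of cells) than on the others.

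Fos, the founding Fos protein and the most abundant of that group, was undetected in part of the cells on each plate. Among the cells that had it, the level of Fos varied widely. On the CD8 wild-type plate its level ran from 0 through a median of 0 to a highest value of 1817 FPKM, and it was detected in 33.3% of 72 cells (exact Clopper-Pearson 95% interval 22.7 to 45.4, which like all intervals here covers counting error only). The CD8 plate labelled knockout had a median of 13.5 and a highest value of 10966 FPKM, with Fos detected in 50.6% of 77 cells (39 to 62.2). The CD4 wild-type plate had a median of 0 and a highest value of 11349 FPKM, with 40.5% of 74 cells (29.3 to 52.6). On the CD4 plate labelled knockout the median cell held 1095 FPKM, the highest 16604 FPKM, and 79.5% of 78 cells had detected Fos (68.8 to 87.8). This plate's interval lies above the other 3, which overlap each other. Among detecting cells the median level also differed, with 379.1 and 695 FPKM in CD8 cells and 834 and 1686 FPKM in CD4 cells, wild type first. Both more cells with Fos and more Fos per detecting cell therefore entered the higher means. The population wells held 250, 983, 1650 and 4032 FPKM in the order of the plates.

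Fosb, a close relative of Fos, followed it at a lower level. It was detected in 15.3% of CD8 wild-type cells (7.88 to 25.7), 24.7% of CD8 cells labelled knockout (15.6 to 35.8), 16.2% of CD4 wild-type cells (8.67 to 26.6) and 57.7% of CD4 cells labelled knockout (46 to 68.8). The median cell was at 0 on the first 3 plates and at 14 FPKM on the CD4 plate labelled knockout, and the highest cells held 63.6, 150, 136.6 and 644 FPKM. As for Fos, the interval of the CD4 plate labelled knockout lay above the other 3, and its population well, at 71.6 FPKM, was above those of the other plates at 2.59, 21.8 and 19.8 FPKM.

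Fosl2, which encodes FRA-2, had another order. It was detected in 34.7% of CD8 wild-type cells (23.9 to 46.9) against 66.2% of CD8 cells labelled knockout (54.6 to 76.6), with medians of 0 and 18 FPKM and highest values of 191.5 and 440 FPKM. In CD4 cells it was detected in 52.7% (40.7 to 64.4) of the wild type and 57.7% (46 to 68.8) of those labelled knockout, with medians of 1.94 and 7.01 FPKM and highest values of 431 and 612 FPKM. The CD8 plates did not overlap in their intervals and the CD4 plates did. The population wells held 19.8 and 97 FPKM for CD8 and 49.6 and 138.6 FPKM for CD4.

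**Figure D2:**
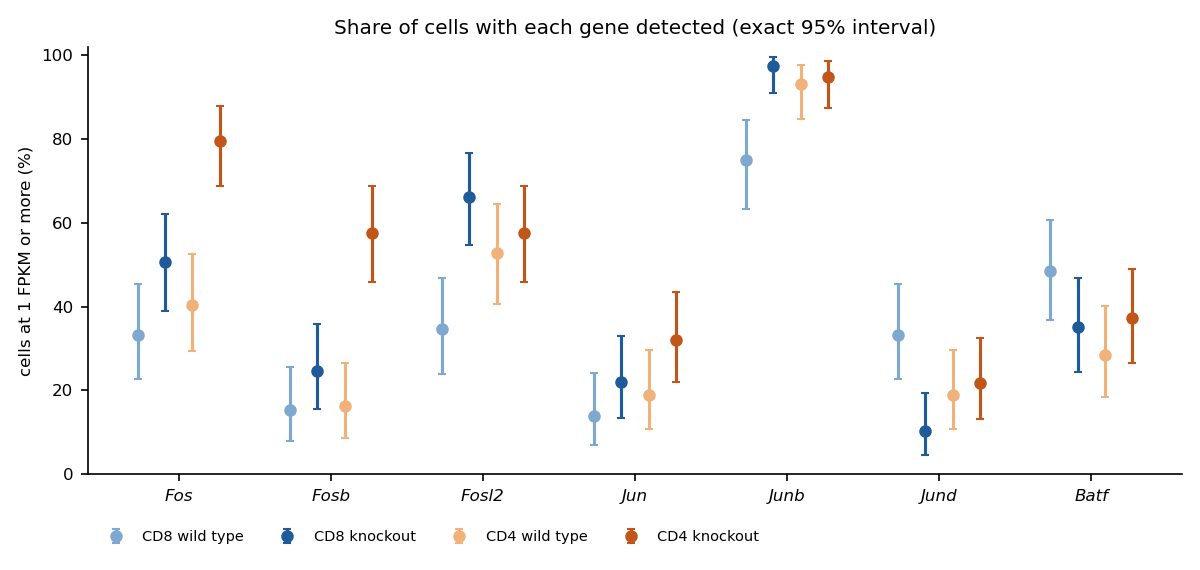
Share of kept cells in percent with each gene at 1 FPKM or more on the vertical axis, for the 7 genes on the horizontal axis and the 4 plates in colour, with exact 95% intervals as bars. Fos and Fosb stand highest on the CD4 plate labelled knockout, at 79.5% and 57.7%, Junb is lowest on the CD8 wild-type plate, at 75%, and the 4 intervals of Jun and of Batf overlap.

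Among the Jun group, Junb, a Jun protein that is abundant in activated T cells, was detected in 75% of CD8 wild-type cells (63.4 to 84.5) and in 97.4% (90.9 to 99.7), 93.2% (84.9 to 97.8) and 94.9% (87.4 to 98.6) of cells on the other plates. Its median cell held 578 FPKM on the CD8 wild-type plate and 2741, 1858 and 3849 FPKM on the others, and the highest cells held 5835, 14452, 11960 and 14567 FPKM. The CD8 wild-type plate was the low one in each of these measures, and its interval did not overlap those of the other 3, although it was also the plate with the most genes detected per cell. The population wells held 1574, 5363, 4157 and 9479 FPKM.

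Jun, the partner that gave the group its name, was detected in few cells. It was found in 13.9% (6.87 to 24.1) and 22.1% (13.4 to 33) of CD8 cells and 18.9% (10.7 to 29.7) and 32.1% (21.9 to 43.6) of CD4 cells, wild type first, and the median was 0 on every plate. The highest cells held 715, 1165, 1709 and 1411 FPKM. All 4 intervals overlapped, whereas the population wells spread more, with 21.5 and 91.5 FPKM for CD8 and 213.5 and 425 FPKM for CD4.

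Jund, a Jun protein that is usually transcribed steadily rather than on demand, was near the lower limit of the table. It was detected in 33.3% of CD8 wild-type cells (22.7 to 45.4), 10.4% of CD8 cells labelled knockout (4.59 to 19.4), 18.9% of CD4 wild-type cells (10.7 to 29.7) and 21.8% of CD4 cells labelled knockout (13.2 to 32.6). Its highest single cell held 77 FPKM and its population wells held 2.84, 1.19, 9.91 and 1.42 FPKM. Jund is a single-exon gene whose longest coding transcript in GENCODE M21 is 67.1% G and C, and only 0.253% of 19347 genes of the table reach that share. Whether this composition bears on its level was not tested.

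Batf was detected in 48.6% of CD8 wild-type cells (36.7 to 60.7), 35.1% of CD8 cells labelled knockout (24.5 to 46.8), 28.4% of CD4 wild-type cells (18.5 to 40.1) and 37.2% of CD4 cells labelled knockout (26.5 to 48.9). Its median cell was at 0 on every plate, the highest cells held 3236, 1030, 1692 and 1666 FPKM, and the population wells held 558, 254.3, 343.1 and 299.2 FPKM. The CD8 wild-type plate was thus the highest for Batf and the lowest for Fos, Fosb, Fosl2, Jun and Junb by share of cells, although neighbouring plates in the order of Batf overlapped.

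The mean over cells of log2(FPKM + 1) was then compared between the plates of each cell type, for every gene that at least 10% of the cells on one plate or the other had at 1 FPKM or more. A difference on this scale carries both the share of detecting cells and their level. In CD8 cells Junb was higher by 3.36 on the plate labelled knockout (10.86 ± 2.29 against 7.50 ± 4.56, SD over cells), Fosl2 by 2.26 (3.75 ± 3.20 against 1.49 ± 2.33) and Fos by 2.07 (4.78 ± 4.96 against 2.71 ± 4.03). Batf was lower, with a difference of -1.19 (2.84 ± 4.02 against 4.02 ± 4.33). These 4 of 7 members were past 1 log2 in either direction, as were 11.3% of 8117 genes. Jun at 0.79, Fosb at 0.66 and Jund at -0.73 lay within 1 log2. Thus 3 of 7 members were higher by 1 log2 or more, where 2.07% of genes were, and 1 was lower, where 9.19% of genes were. The median of the members was 0.79 and that of all genes -0.22. In the population wells 5 members were higher by 1 log2 or more, with Fosb at 2.67, Fosl2 at 2.24, Jun at 2.04, Fos at 1.97 and Junb at 1.77, against 11.1% of genes, and Batf was lower at -1.13, against 7.96% of genes. Fos, Fosl2 and Junb were higher in both kinds of library, as were 0.936% of genes, and Batf was lower in both, as were 1.21%.

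In CD4 cells Fos was higher by 4.16 on the plate labelled knockout (8.12 ± 4.78 against 3.96 ± 5.00, SD over cells), the widest difference in that direction among 7063 genes, and Fosb by 2.48 (3.31 ± 3.13 against 0.83 ± 2.00). Batf at 1.07 and Jun at 1.05 were just past 1 log2, whereas Junb at 0.77, Fosl2 at 0.39 and Jund at -0.06 were not. So 4 of 7 members were higher by 1 log2 or more, where 2.53% of genes were, and 0 were lower, where 2.51% were, so that 4 were past 1 log2 in either direction, where 5.04% were. The median of the members was 1.05 and that of all genes -0.04. In the population wells Fosb at 1.80, Fosl2 at 1.46, Fos at 1.29 and Junb at 1.19 were higher by 1 log2 or more, against 12.9% of genes. Jund was lower at -2.17, against 13.4% of genes, though its 2 wells held only 1.42 and 9.91 FPKM. Fos and Fosb were higher in both kinds of library, as were 0.524% of genes. Fos alone among the members was higher by 1 log2 or more in both the CD8 and the CD4 cells, as were 0.474% of 6753 genes.

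**Figure D3:**
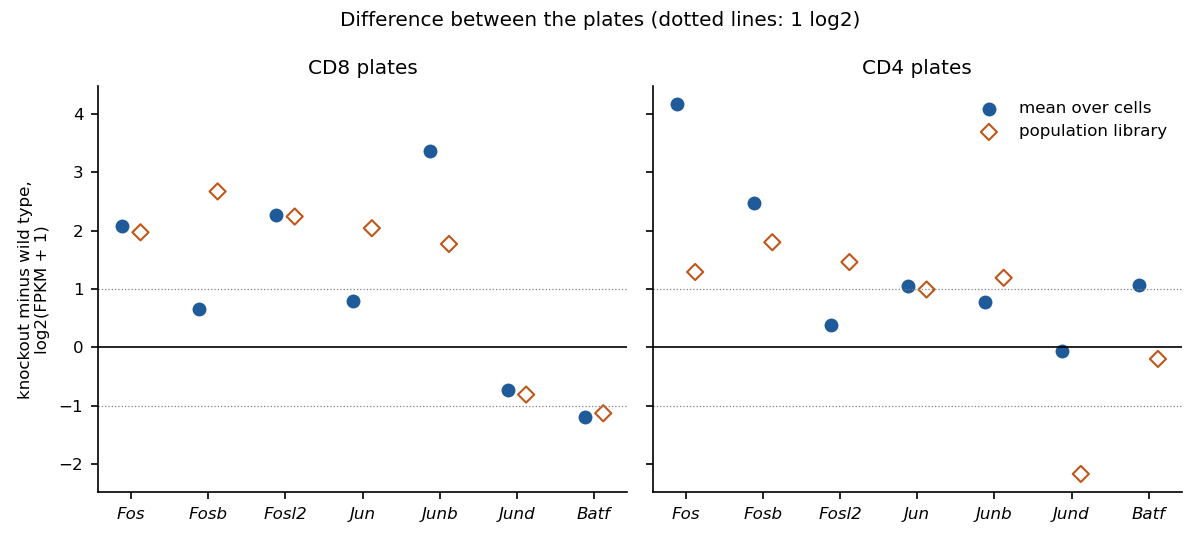
Difference of the plate labelled knockout minus the wild-type plate in log2(FPKM + 1) for the 7 genes, with the mean over cells as filled circles and the population well as open diamonds, for CD8 at left and CD4 at right. Both kinds of library place Fos, Fosl2 and Junb above 1 log2 in CD8 and Fos and Fosb above it in CD4, whereas Batf in CD4 lies at 1.07 in cells and -0.20 in the population wells.

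The Batf differences were the least steady of these. In CD8 cells the value of -1.19 became -2.05 in cells with 2000 or more detected genes and -0.02 in 50 cells of each plate paired to within 100 detected genes, and the part of depth in it was not tested further. In the same paired CD8 cells the differences of Fos, Fosl2 and Junb still exceeded 1 log2. In CD4 cells the value of 1.07 became -0.20 in the population wells.

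With the wild-type plates set side by side, CD4 cells had more Junb (difference of CD4 minus CD8 of 2.58), Fosl2 (1.55) and Fos (1.25) than CD8 cells and less Batf (-1.97). These 3 higher members stand beside 1.58% of 7983 genes, and the 1 lower member beside 17.7%. In the population wells 6 members were higher by 1 log2 or more, where 18.4% of genes were, led by Jun at 3.25 and Fos at 2.72. Fos, Fosl2 and Junb were higher in both kinds of library, as were 1.30% of genes, and no member was lower in both, as were 7.20%. The single-cell difference of Fos became 0.20 in cells with 2000 or more detected genes and 0.94 with all 94 wells, whereas those of Fosl2 and Junb stayed above 1 log2 in both settings. The median over all genes was -0.38 in this comparison, in which the CD8 plate had more detected genes per cell. On the plates labelled knockout, Fos was higher in CD4 cells by 3.34 and Fosb by 2.00, against 2.57% of 7522 genes, and no member was lower by 1 log2, against 9.32%. In the population wells Jun at 2.20, Fos at 2.04 and Fosb at 1.67 were higher, against 10.1% of genes, and Fos and Fosb were so in both kinds of library, as were 1.62%. Junb at -0.02, Fosl2 at -0.32 and Batf at 0.29 were close to level in the single cells. The 4 comparisons share plates, so they are not independent of one another.

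Cell by cell, Fos and Fosb varied together on every plate. Spearman's rho between them was 0.36 over 72 CD8 wild-type cells, 0.47 over 77 CD8 cells labelled knockout, 0.34 over 74 CD4 wild-type cells and 0.56 over 78 CD4 cells labelled knockout. With the number of detected genes held, it was 0.32, 0.46, 0.34 and 0.56. Points of 1 plate share its preparation, and no p was computed. Fosb was detected in 66.1% of the CD4 cells labelled knockout that had Fos and in 25.0% of those that did not. Fos and Fosb were the 1 pair of 21 with rho of 0.3 or more on all 4 plates. On single plates 5, 1, 4 and 3 of 21 member pairs reached that size, where 7.91%, 2.34%, 1.91% and 1.81% of all gene pairs did. With detected genes held, the 5 pairs of the CD8 wild-type plate had 0.32 for Fos and Fosb, 0.30 for Fosb and Jun, 0.27 for Fos and Jun, and 0.26 for Junb with either Fos or Fosb.

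Fosl2 and Junb, which can form a dimer, had rho of 0.30, 0.22, 0.35 and 0.34 in the order of the plates. Fos and Junb were less even, with 0.32, 0.02, 0.31 and 0.47, and so were Fos and Jun, with 0.32, 0.18, 0.37 and 0.08. Junb was detected in 97.4% of CD8 cells labelled knockout and in 93.2% and 94.9% of the CD4 cells. Its rho on these plates thus rests mostly on its level. Why its rho with Fos differed between them was not tested. Batf and Jund had no pair with rho of 0.3 or more on any plate. The rho of Batf with Fos was 0.09, 0.00, -0.09 and 0.02, and with Junb 0.12, 0.15, -0.10 and 0.00, and that of Jund with Fos was 0.17, 0.00, -0.06 and 0.12. The median over the 21 pairs was 0.18, 0.06, 0.04 and 0.09, next to 0.10, 0.05, 0.03 and 0.04 over all gene pairs.

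**Figure D4:**
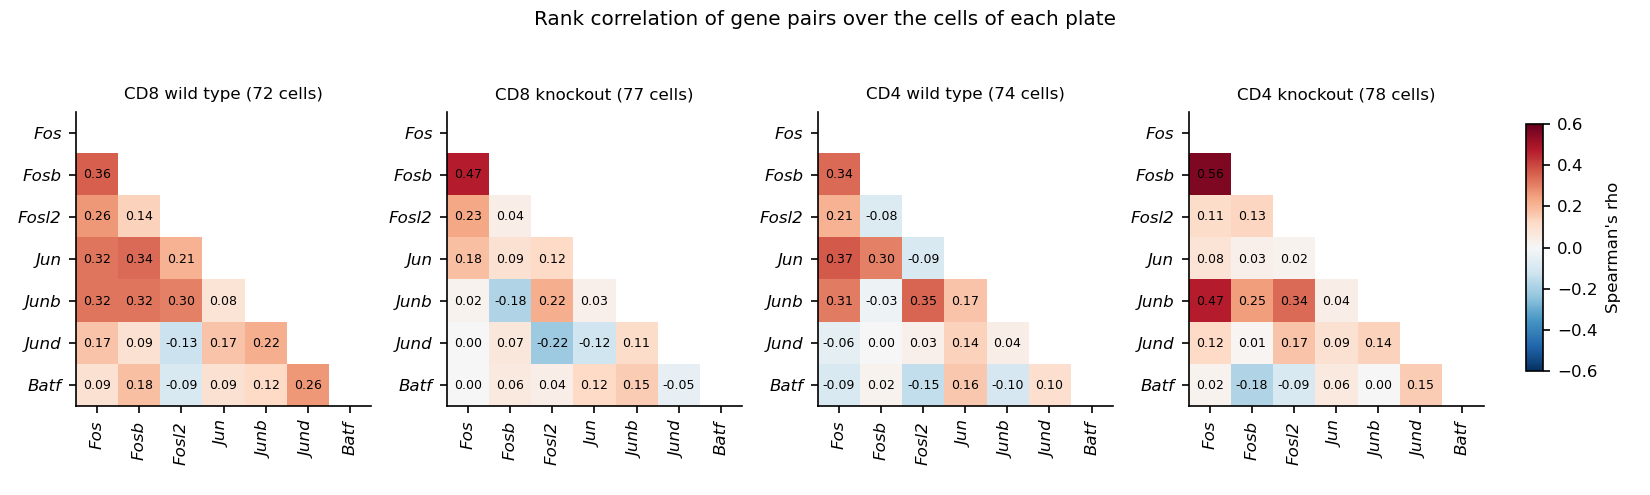
Spearman's rho for the 21 pairs of the 7 genes over the kept cells of each plate, with red for positive and blue for negative values and each value printed in its cell. Fos and Fosb reach 0.34 to 0.56 on the 4 plates, whereas the row of Batf lies between -0.18 and 0.26.

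Because a Fos protein needs a partner, both subunit groups were counted in each cell. RNA of at least 1 Fos-group gene (Fos, Fosb or Fosl2) and at least 1 Jun-group gene (Jun, Junb or Jund) was detected in 44.4% of CD8 wild-type cells (32.7 to 56.6), 79.2% of CD8 cells labelled knockout (68.5 to 87.6), 73% of CD4 wild-type cells (61.4 to 82.6) and 91% of CD4 cells labelled knockout (82.4 to 96.3). A Jun-group gene without any Fos-group gene was found in 36.1%, 18.2%, 21.6% and 6.41% of cells. The reverse, Fos-group RNA without Jun-group RNA, was rare, in 4 of 72, 0 of 77, 0 of 74 and 1 of 78 cells. A count of 0 allows a share of up to 4.68% and 4.86% by the same intervals, and an undetected RNA may still be present. At least 1 Jun-group gene was detected in 80.6%, 97.4%, 94.6% and 97.4% of cells, which left few cells for this reverse case. Its rarity therefore says nothing of pairing. Whether both groups occurred together more often than their separate shares would give was not tested. The summed Jun-group level exceeded the summed Fos-group level in 77.8%, 87%, 83.8% and 74.4% of cells.

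The number of members detected per cell averaged 2.54 ± 1.74 on the CD8 wild-type plate, 3.06 ± 1.35 on the CD8 plate labelled knockout, 2.69 ± 1.27 on the CD4 wild-type plate and 3.81 ± 1.37 (SD over cells) on the CD4 plate labelled knockout. At least 4 members were detected in 25.0% (15.5 to 36.6), 40.3% (29.2 to 52.1), 24.3% (15.1 to 35.7) and 66.7% (55.1 to 76.9) of cells. The interval of the CD4 plate labelled knockout lay above the other 3, which overlap each other. Members detected independently at their single-gene shares would give 33.3% on the CD8 plate labelled knockout. They would give 22.1% on the CD4 wild-type plate and 60.5% on the CD4 plate labelled knockout. On all 4 plates this value was below the observed share but inside its interval. The count thus mostly restates the single-gene shares. On the CD8 wild-type plate the number of members went with the number of detected genes (rho 0.71 over 72 cells), more closely than on the other plates (0.36, 0.25 and 0.13).

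**Figure D5:**
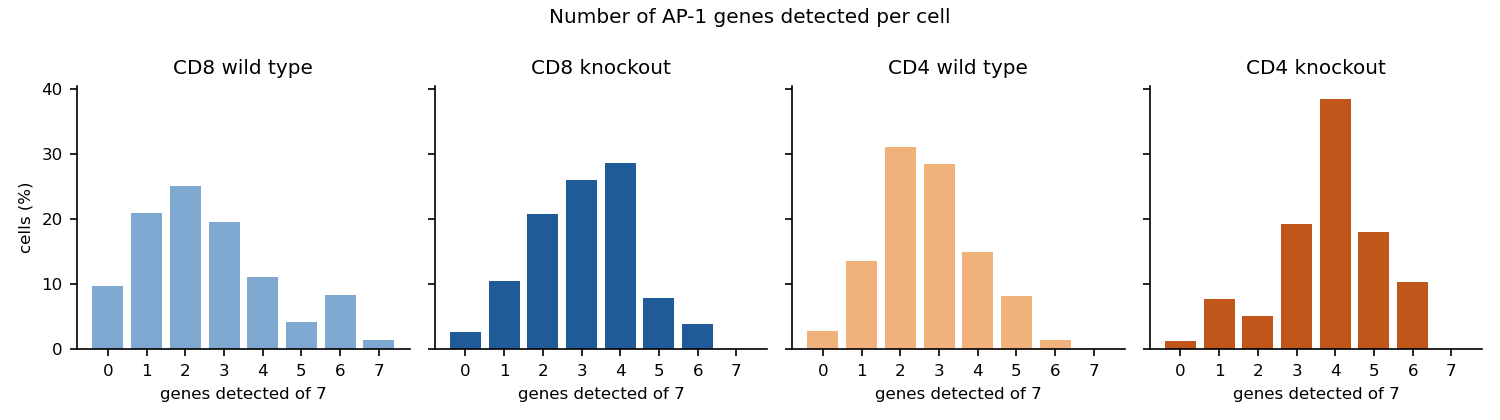
Percent of kept cells on the vertical axis by the number of the 7 genes detected in the cell on the horizontal axis, 1 panel per plate. The CD4 plate labelled knockout has its peak at 4 genes (30 of 78 cells), as has the CD8 plate labelled knockout (22 of 77), and the wild-type plates have theirs at 2 (18 of 72 CD8 and 23 of 74 CD4 cells).

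Genes around AP-1 in the signalling pathway were counted by list, on the same scale and against the same background of 2.07% of genes higher in CD8 and 2.53% in CD4. Of 15 kinases and factors upstream of AP-1, such as the MAP kinases and the serum response factor Srf, 14 passed the filter in CD8 and 0 differed by 1 log2 in either direction (median -0.13), and of 13 in CD4 only Map2k2, a kinase that activates ERK, did, at -1.19. Other immediate early genes differed more often, though Ier2 lies within 1000000 bases of Il27ra. In CD8 cells 4 of 12 were higher, among them Ppp1r15a, a phosphatase subunit of the stress response, at 3.72 and Ier2 at 3.48, and in CD4 cells 6 of 12 were, with Ppp1r15a at 3.32, the zinc finger factor Egr1 at 3.05, Ier2 at 2.52 and the nuclear receptor Nr4a1 at 2.15. Of 12 feedback genes, which restrain MAP kinase, NF-kB or cytokine signals or degrade short-lived RNA, 9 were higher in CD8, led by Nfkbiz at 3.0 and Zfp36l1 at 2.89. In CD4 6 of 12 were higher, led by Nfkbiz at 2.60 and the MAP kinase phosphatase Dusp1 at 1.95, and Dusp2 was lower at -1.09. The CD4 population wells of Nfkbiz, Dusp1 and Dusp2 differed by 0.40, 0.64 and 0.23. Heat shock genes share stress signals with AP-1 but use another factor. Of these, 0 of 7 were past 1 log2 in CD8 (median -0.01) and 0 of 8 in CD4 (median -0.22). Their population wells had median differences of 0.00 and 0.07. Hspa1a, however, held 149.5 FPKM in the CD4 population well labelled knockout and 0 in the wild-type one. It was detected in 10.3% of CD4 cells labelled knockout and 1.35% of CD4 wild-type cells. In CD8, where it missed the filter, these wells held 3.68 and 123.9 FPKM.

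Possible partners and targets of AP-1 were counted in the same way. Of 5 partner genes, Irf8 was lower in CD8 at -1.24, but at 0.06 in the population wells. In CD4 Irf4, which binds DNA with Batf, was higher at 1.62, and at 1.75 in the population wells. Nfatc1, which binds with Fos and Jun, was lower in CD4 cells at -1.57, whereas its population wells differed by 0.97 in the other direction. Among T cell genes with known AP-1 sites, Cd69, an early activation marker, was higher in both cell types, at 3.51 in CD8 and 3.35 in CD4. In CD4, Il2ra, the high-affinity chain of the IL-2 receptor, was higher at 1.55 (1.79 in the population wells). The co-stimulatory receptor gene Icos was higher there at 1.28 (0.15 in the population wells). With Cd69 these make 1 of 6 tested genes in CD8 and 3 of 7 in CD4. Of 14 other AP-1 and related bZIP genes only 6 passed the filter in each cell type. In single cells just 1 of them, Atf4, was past 1 log2, at 1.33 in CD8 cells, but at 0.10 in the CD8 population wells. Fosl1, the remaining Fos relative, was detected in 0, 0, 1 and 2 cells of the plates, and the Batf relatives Batf2 and Batf3 in at most 1 cell per plate each. In the population wells Batf3 was at 31.3 FPKM on the CD8 plate labelled knockout and at 0 on the others. Atf3 missed the filter in both cell types, yet its population wells labelled knockout were higher, by 8.13 log2 in CD4 and 1.60 in CD8. The CD4 wild-type well held 0 FPKM of it. Atf3 was detected in 7.69% of CD4 cells labelled knockout and 4.05% of CD4 wild-type cells. In CD8 these shares were 2.60% and 4.17%.

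For each member the 5 genes most like it were taken by mean rho over the 4 plates among 5264 genes detected in at least 10% of cells of every plate. After Fosb at 0.43, the genes nearest to Fos were Nfkbid (0.34), Nr4a1 (0.34), Zfp36 (0.33) and Ppp1r15a (0.32), and those nearest to Fosb after Fos were Gadd45b (0.28) and Nfkbid (0.27). Those near Junb included Fosl2 (0.30), Kdm6b (0.29), Ppp1r15a (0.29) and Zfp36 (0.28), so that Ppp1r15a and Zfp36 stood near both Fos and Junb. Fosl2 had Junb (0.30), Vps37b (0.25) and Ppp1r15a (0.24). The genes nearest to Batf were the actin genes Actg1 (0.33) and Actb (0.32), Mettl21d (0.33), the respiratory chain gene Sdhb (0.32) and Tpm3 (0.32). Those nearest to Jun were Scand1 (0.27) and Tor1aip1 (0.26), and those nearest to Jund were Adam8 (0.29) and Mpv17l2 (0.27).

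Batf and Jund were followed against the checkpoint receptor genes Pdcd1, Havcr2, Lag3 and Tigit, first in CD8 cells. Batf is known to act in chronically stimulated CD8 T cells. In these same data Batf and Jund were also the members with the highest median rho with these receptors. It was 0.24 and 0.18 over the 4 plates, beside 0.08 and 0.06 for all genes. On the wild-type plate Batf was detected in 70.7% of the 41 cells with at least 3 of the 4 receptor genes (54.5 to 83.9) and in 19.4% of the other 31 (7.45 to 37.5). Jund was detected in 48.8% (32.9 to 64.9) and 12.9% (3.63 to 29.8) of the same cells. Fosb was in 22% and 6.45%, Jun in 17.1% and 9.68% and Junb in 82.9% and 64.5%, whereas Fos was in 31.7% and 35.5% and Fosl2 in 31.7% and 38.7%. The 41 cells also had more detected genes, with a median of 3125 against 2071. Among cells with 2000 or more detected genes, Batf was in 74.4% of 39 (57.9 to 87) and 31.6% of 19 (12.6 to 56.6), with medians of 3247 and 2245 genes, and Jund in 48.7% (32.4 to 65.2) and 21.1% (6.05 to 45.6), intervals that overlap. Over all 72 cells, rho of Batf was 0.50 with Pdcd1, 0.48 with Havcr2, 0.41 with Lag3 and 0.49 with Tigit, and 0.28, 0.25, 0.11 and 0.22 with detected genes held, beside 0.57 between Batf and detected genes. For Jund the values with detected genes held were 0.21, 0.30, 0.14 and 0.03. On the CD8 plate labelled knockout only 15 of 77 cells had at least 3 of the receptor genes. Batf was in 53.3% of them (26.6 to 78.7) and in 30.6% of the rest (19.6 to 43.7). Jund was in 13.3% (1.66 to 40.5) and 9.68% (3.63 to 19.9) of the same cells. Its rho with the 4 receptors on that plate was 0.10, 0.14, 0.20 and -0.01 with detected genes held. There rho of Batf with the 4 receptors was 0.06 to 0.14, whereas with Irf4 it was 0.40, and 0.39 with detected genes held. Batf was detected in 70.6% of the 17 cells with Irf4 (44 to 89.7) and 25.0% of the 60 without (14.7 to 37.9), at medians of 2275 and 2225 detected genes. On the other plates rho of Batf with Irf4 was 0.15, -0.07 and 0.06. In CD4 wild-type cells rho of Batf with the 4 receptors was 0.18 to 0.29, and 0.14 to 0.25 with detected genes held. In CD4 cells labelled knockout it was 0.08 to 0.36, highest with Tigit, and 0.05 to 0.32 with detected genes held. For Jund the values with detected genes held were -0.07 to 0.16 and -0.05 to 0.15 on these 2 plates. Whether these relations differ between plates was not tested.

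In CD4 cells the members were also split by Foxp3, the factor that defines regulatory T cells. On the plate labelled knockout, Fosb was detected in 43.2% of 37 cells with Foxp3 (27.1 to 60.5) and 70.7% of 41 without (54.5 to 83.9), and Fos in 70.3% (53 to 84.1) and 87.8% (73.8 to 95.9). On the wild-type plate Fosb was in 18.5% of 27 and 14.9% of 47 cells and Fos in 48.1% and 36.2%. The intervals overlapped in each of these splits. Fos was thus more often detected on the plate labelled knockout among cells with Foxp3 and among cells without it, though for the former the intervals overlap (28.7 to 68.1 against 53 to 84.1). Batf was in 40.7% and 21.3% of wild-type and 43.2% and 31.7% of CD4 cells labelled knockout, with and without Foxp3. Jun and Jund differed more on the wild-type plate. Each was in 37% of cells with Foxp3 (19.4 to 57.6) and 8.51% without (2.37 to 20.4), at medians of 2316 and 1966 detected genes. These intervals also overlap. The rho with Foxp3 was 0.31 for Jun, 0.33 for Jund and 0.40 for Junb there. On the plate labelled knockout it was 0.07, 0.08 and -0.20.

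The members' places in the genome (GENCODE M21, GRCm38) bear on how these values can be read. Fos (chromosome 12, 85473890 to 85477273, plus strand, 4 exons) and Batf (chromosome 12, 85686669 to 85709087, plus strand, 3 exons) lie 209.4 kb apart with 1 protein-coding gene between them. That gene is Jdp2, another AP-1 gene, detected in 0, 2, 1 and 0 cells of the plates. The rho of Fos and Batf lay between -0.09 and 0.09. Fosb lies on chromosome 7 (19302696 to 19310051, minus strand) and Fosl2 on chromosome 5 (32135801 to 32157842, plus strand), each with 4 exons. The Jun genes have a single exon each, Jun on chromosome 4 (95049034 to 95052222, minus strand), Junb on chromosome 8 (84974484 to 84978718, minus strand) and Jund on chromosome 8 (70698949 to 70700616, plus strand). Junb lies 932 kb from Il27ra (chromosome 8, 84030294 to 84042589), the targeted gene. In CD8, 33 other genes within 1000000 bases of Il27ra passed the filter. Of these, 2 (Junb and Ier2) were higher by 1 log2 or more, against 2.07% of all genes, and 4 lower, against 9.19%. In CD4, 28 passed, with 3 higher, Ier2 included, against 2.53%, and 1 lower, against 2.51%. The part of this linkage in the Junb and Ier2 differences was not tested.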

How the data were processed

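Expression was measured by Smart-seq2 in 384 wells of 4 plates. The authors deposited 1 table of FPKM values with TMM normalization for 23420 genes, made with RSEM, Bowtie and the mm10 build per the submitters' processing notes, with no version in the sources used here. The file holds no counts, so depth is described by the number of genes at 1 FPKM or more, and RSEM divides fragments shared by related genes by an estimate. Cells with 1000 or more such genes were kept. Differences are between means of log2(FPKM + 1), with a pseudocount of 1, over genes detected in at least 10% of cells of either plate. They understate changes of low genes. Shares carry exact Clopper-Pearson 95% intervals for counting error only, and rank correlations are within a plate. With 1 plate per group no test was made. The genes named are the 7 members, up to 4 genes per list with the widest differences, the 5 genes nearest to each member and the splitting genes Foxp3, Irf4 and the checkpoint receptors. The members and lists were chosen with earlier results of these data known. Some genes are not reported here. A doubtful cell had a melanoma or B cell marker or 2 myeloid markers at 10 FPKM or more, no Cd3 gene, or the other lineage gene. Functions were tested on simulated data. Python 3.11.15, pandas 2.3.3, numpy 2.4.6, SciPy 1.17.1 and matplotlib 3.10.9 were used.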

Additional observations from a re-analysis of the deposited data

Results flagged for a closer look

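Batf was singled out because its difference between the plate labelled knockout and the wild-type plate had opposite signs in the cell types, -1.19 in CD8 cells and 1.07 in CD4 cells on the log2(FPKM + 1) scale. This difference between the cell types was not tested, since each group has 1 plate. Among 6753 genes tested in both, 0.281% were lower by 1 log2 or more in CD8 and higher by 1 log2 or more in CD4. In the population wells the values were -1.13 in CD8 and -0.20 in CD4. In single cells paired to within 100 detected genes the values were -0.02 in CD8 and 1.17 in CD4.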

How the results depend on the processing

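In all, 556 values under other settings were compared with those reported. Of the counts of members past 1 log2, the median rank correlations and the shares of cells with at least 4 members, 74 stayed near the reported value and 11 moved. In CD8 knockout minus wild type, 4 members past 1 log2 became 7 with a pseudocount of 0.1 FPKM. Counts taken as near there include 6 with arithmetic means and in the population wells. They also include 3 with a pseudocount of 10 FPKM and with all 94 wells. Batf was no longer past 1 log2 in those last 2 settings, with arithmetic means, in matched cells and with the all-gene median subtracted. Jun came in for Batf in matched cells and with that median subtracted, so the count stayed at 4. In CD4, 4 became 2 (Fos and Fosb) with a pseudocount of 10 FPKM, with all 94 wells and with arithmetic means. In CD4 minus CD8, 4 became 2 for wild type with a pseudocount of 10 FPKM, and 2 became 4 for knockout without doubtful cells, whether or not Tyr was used to mark them. The median rank correlation became 0.07 on the CD8 wild-type plate with detected genes held and 0.01 on the CD4 knockout plate in cells with 2000 or more detected genes. The share of cells with at least 4 members became 14% in CD8 wild-type cells matched on detected genes, and 51.3% on the CD4 knockout plate at 10 FPKM. Batf in CD4 turned to -0.20 in the population wells. Of 471 values for single genes, 26.8% moved and 1 reversed. The cause was not tested. Fos stayed past 1 log2 between knockout and wild type in both cell types under every setting run. Doubtful cells were 40.5% to 61.1% of a plate by the full rule. Since Tyr was found in nearly every cell, a rule without it was added after seeing the data, which marked 11.5% to 33.3% of cells and left 4 members past 1 log2 in CD8 and 4 in CD4, with Batf at -2.32 in CD8. No paired analysis was possible because each group has 1 plate and the result comes from no test. Without counts, the depth behind a single value is unknown, and a gene at 0 in a cell was not detectable at that depth.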
